A study of Mus musculus with 6 samples.

Results

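Transcripts of 32 genes for pyruvate dehydrogenase, its kinases and phosphatases, pyruvate entry into mitochondria and the enzymes of the Krebs cycle were compared in double-positive thymocytes. The genes were chosen by name: 33 symbols were listed, and 32 of them matched a row among the 29626 genes of the deposited count table. Pdk4 had no row under that name and was not analysed here. All 32 genes passed the filter on low counts, as did 15353 genes in total. The cells were CD4+CD8+ thymocytes sorted from the thymus and lysed without stimulation in culture. The 3 KANSL1-deficient mice carried a floxed Kansl1 gene, Kansl1 fl/fl, and a CD4-Cre transgene. The 3 controls were Kansl1 fl/fl littermates without Cre. All mice were 8 weeks old. Regulatory sequence of the Cd4 gene drives the Cre, which therefore acts as thymocytes enter the double-positive stage, and the floxed allele is common to both groups. No Cre-positive mouse with an intact Kansl1 gene was among the libraries, so the presence of Cre and the loss of Kansl1 cannot be told apart.

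The pyruvate dehydrogenase complex sits in the mitochondrial matrix and turns pyruvate, the end product of glycolysis, into acetyl-CoA. Kinases of the Pdk family phosphorylate its E1 alpha subunit and switch the complex off, and the phosphatases Pdp1 and Pdp2 switch it back on. The Krebs cycle oxidises acetyl-CoA and passes the electrons to the respiratory chain, and it also supplies citrate, 2-oxoglutarate and oxaloacetate for synthesis. Dividing thymocytes are known for a higher use of glucose than the small resting cells that make up most of the double-positive stage. KANSL1 is a subunit of a chromatin complex around the histone acetyltransferase KAT8.

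The 6 libraries held between 19361968 and 22459830 counts, and the 8 defining markers of double-positive cells were all read, with summed levels of 14542 to 16252 CPM (counts scaled to library size) in KANSL1-deficient libraries and 12315 to 12797 CPM in control libraries. Kansl1 itself was read at 146, 168 and 188 CPM in KANSL1-deficient libraries, against 214, 189 and 230 CPM in control libraries. By the edgeR quasi-likelihood test the log2 fold change of -0.33 ± 0.14 (SE) missed the threshold of 0.05 (Benjamini-Hochberg adjusted p = 0.171). These counts cover the whole gene, so they check the labels only weakly. Cell division markers moved with the groups: 14 of 14 were higher in the KANSL1-deficient cells, with a summed level of 975 to 1193 CPM against 245 to 449 CPM in control libraries. Of the 10 listed markers of double-negative cells, the stage before, 7 could be tested and 0 passed with edgeR (1 at an unadjusted p under 0.05), with a summed level of 155 to 182 CPM in KANSL1-deficient libraries and 111 to 134 CPM in control libraries. Zbtb7b, which defines CD4 single-positive cells, was at or near 0 CPM in every library. Summed markers of CD4 single-positive cells were at 406 to 571 CPM in KANSL1-deficient and 244 to 297 CPM in control libraries, and those of gamma-delta T and NK cells at 58.5 to 101 CPM in KANSL1-deficient and 41.7 to 47.4 CPM in control libraries. Those of B cells were at 493 to 561 CPM in KANSL1-deficient and 291 to 406 CPM in control libraries, of which Ighm made up 472 CPM in KANSL1-deficient and 282 CPM in control cells on average. Of the 5 listed markers of CD8 single-positive cells, 3 could be tested and 0 passed with edgeR. Mean CPM in KANSL1-deficient and control cells was 16.1 and 25.9 for Runx3, and 0.394 and 1.92 for Itgae. Both were lower in every KANSL1-deficient library than in any control library. The authors' deposited table lists adjusted p-values of 0.0116 and 0.0422 for them. Cd8b1, also a double-positive marker, had a log2 fold change of 0.08. The summed macrophage, dendritic, erythroid and epithelial markers each stayed at or under 16.5 CPM. In bulk RNA a change in the share of a cell state and a change in RNA per cell cannot be told apart. The part of cell division and of other cells in the values below was not tested.

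Most genes of pyruvate dehydrogenase and the cycle did not pass the threshold. Of the 32 genes, 2 rose in the KANSL1-deficient cells, namely Pdha1 and Pdk1, and 0 fell, with a Benjamini-Hochberg adjusted p under 0.05 in the quasi-likelihood test of edgeR as the threshold. That is 6.25% of the genes, against 6.76% of all 15353 tested genes, of which 3.85% were higher and 2.91% lower. A further 4 genes had an unadjusted p under 0.05 without passing the threshold: Sdha and Idh1 with positive and Idh3b and Pdp2 with negative log2 fold changes. All 6 such genes make up 18.8% of the set, against 22.6% of all tested genes. The median log2 fold change of the 32 genes was -0.05, beside -0.02 for all tested genes, and 20 of the 32 lay within 0.25 of 0. The shares and median over all tested genes are not matched for abundance. Among the 1536 most abundant tested genes the median was 0.20, with 203 called higher and 4 lower. Among the 1535 genes next in abundance it was 0.07, with 94 called higher and 50 lower. Of the 32 genes, 8 belong to the former, Pdk1 and Sdha among them, and 12 to the latter, Pdha1 among them. With library totals as the scale the median of all tested genes was -0.17, and Dld, Pdp1, Cs, Idh3g and Suclg2, which were positive with TMM scaling, were negative. The levels of 5 genes (Pdha1, Pdk1, Pdk2, Sdha and Idh1) were higher in every KANSL1-deficient library than in any control library, and 5 others (Pdp2, Mpc1, Idh3a, Idh3b and Sdhc) were lower in every one. Each count is 15.6% of the set. Among all tested genes, 28.5% did not overlap between the groups, 14.6% higher and 14% lower. DESeq2 called 4 of the 32 genes, adding Sdha and Idh1 to Pdha1 and Pdk1, where it called 14.2% of the 14118 genes for which it gave an adjusted p. The authors' deposited table lists the same 4 with an adjusted p under 0.05, among 14.9% of its 13543 genes with an adjusted p.

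**Figure D1:**
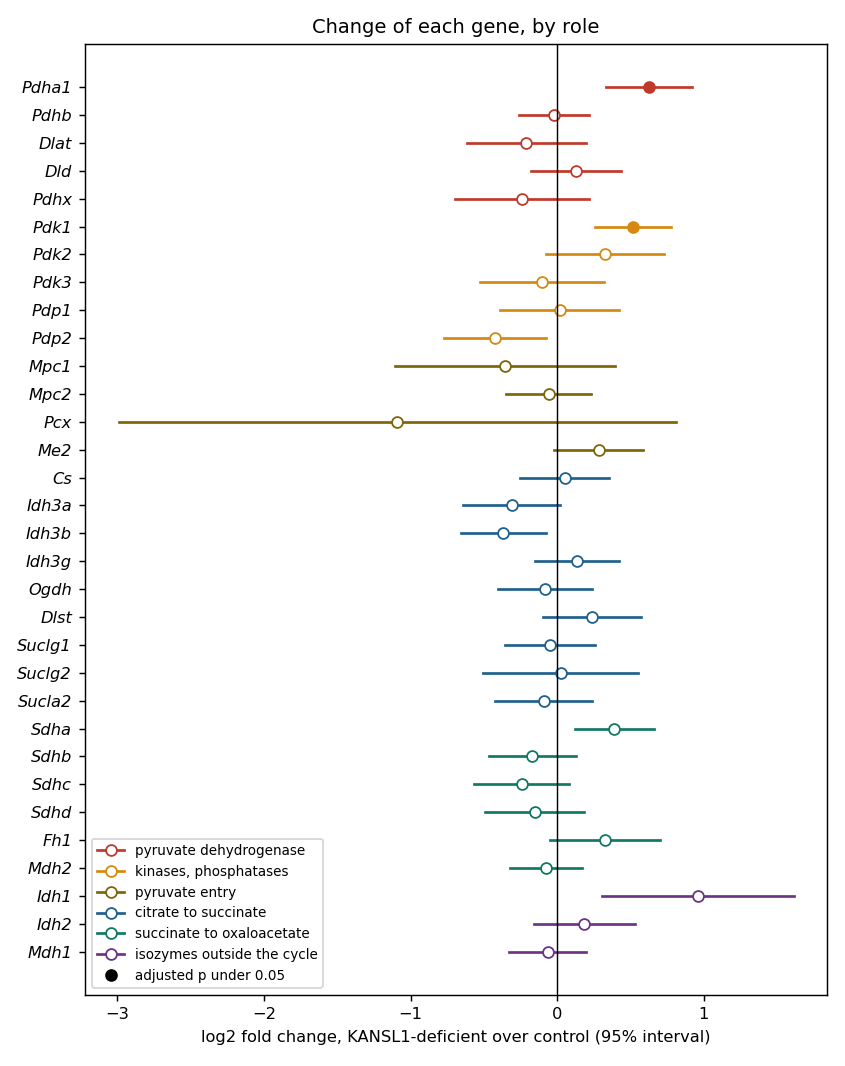
Log2 fold change of each of the 32 genes, KANSL1-deficient over control, on the horizontal axis, with its 95% interval as a bar and genes down the page by role. Filled circles mark Pdha1 (0.62) and Pdk1 (0.52), which passed the threshold, and most of the other points lie close to 0.

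Pdha1, which encodes the E1 alpha subunit that decarboxylates pyruvate and carries the phosphorylation sites of the complex, is shown first together with Pdk1, the kinase gene that rose beside it, and Pdhb, the gene of the E1 beta subunit that pairs with Pdha1 in the enzyme. The 250 bases before the gene start are given for these 3 genes from RefSeq on GRCm38.p6: chrX:160138431-160138680 on the minus strand for Pdha1, chr2:71872974-71873223 on the plus strand for the more upstream of the Pdk1 starts, and chr14:8172993-8173242 on the minus strand for Pdhb. Each is written 5′ to 3′ and ends at the base before the start. Capitals mark matches, on either strand, to any of 7 short motifs searched.
Pdha1: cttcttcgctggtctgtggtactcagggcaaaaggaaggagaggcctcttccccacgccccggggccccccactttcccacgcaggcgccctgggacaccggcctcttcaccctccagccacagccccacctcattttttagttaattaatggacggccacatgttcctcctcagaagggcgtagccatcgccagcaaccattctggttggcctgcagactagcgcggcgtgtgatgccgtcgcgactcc
Pdk1: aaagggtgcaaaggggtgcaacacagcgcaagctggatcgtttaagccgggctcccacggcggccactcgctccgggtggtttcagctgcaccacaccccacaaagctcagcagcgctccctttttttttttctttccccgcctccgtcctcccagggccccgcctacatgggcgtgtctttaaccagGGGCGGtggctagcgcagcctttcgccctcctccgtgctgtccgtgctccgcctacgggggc
Pdhb: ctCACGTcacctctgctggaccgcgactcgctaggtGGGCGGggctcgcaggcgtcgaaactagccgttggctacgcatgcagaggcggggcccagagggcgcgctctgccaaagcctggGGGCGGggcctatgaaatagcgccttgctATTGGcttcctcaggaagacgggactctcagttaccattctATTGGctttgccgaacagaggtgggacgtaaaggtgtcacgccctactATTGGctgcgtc
The Pdha1 window held none of the 7 motifs, the Pdk1 window held 1 GGGCGG, and the Pdhb window held 2 matches to GGGCGG, 3 to CCAAT (read as ATTGG on the printed strand) and 1 to ACGTG. Windows were found for 28 of the 32 genes. GGGCGG, the core bound by SP1, was present for 71.4% of these genes and in 32.7% of all 32851 upstream windows of the same length. CCAAT, bound by NF-Y, was present for 64.3% of the genes and in 33.8% of all windows. ACGTG, the core of the hypoxia response element, was present for 32.1% and in 16.6%, and the E-box CACGTG, every match of which also counts for ACGTG, for 14.3% and in 6.02%. The ETS motif CCGGAAG was present for 10.7% and in 6.91%, the NRF1 core GCATGCGC for 7.14% and in 2.26%, and the YY1 core AAGATGGC for 3.57% and in 1.56%. A gene with several starts counted as holding a motif when any of its windows did, while the share of all windows counts each window once. Counted by window, 23 of the 38 windows of these genes held GGGCGG and 21 held CCAAT. The shares were not matched for GC content, whose median over all windows was 52.4%. The printed windows had 61.6% for Pdha1, 64% for Pdk1 and 61.6% for Pdhb, and another Pdk1 window had 38.4%. A match describes the letters only.

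The E1 alpha gene rose while the other 4 genes of the complex did not pass the threshold. Pdha1 (ENSMUSG00000031299, GRCm39 chromosome X, 158905205 to 158921409) gave 166, 159 and 139 CPM in KANSL1-deficient libraries, against 90.6, 101 and 109 CPM in control libraries. Every KANSL1-deficient library was above every control library, and the lowest of them was the third. The means were 155 ± 14.2 CPM in KANSL1-deficient and 100.3 ± 9.29 CPM in control cells (SD, n = 3 each), a 1.54-fold difference (log2 0.62 ± 0.13, SE; edgeR, Benjamini-Hochberg adjusted p = 0.0201). The authors' deposited table gives 0.62 with an adjusted p of 6.31e-04. Pdha1 did not pass without KANSL1-deficient replicate 1 (adjusted p = 0.0955), KANSL1-deficient replicate 2 (0.0898), control replicate 1 (0.0517) or control replicate 2 (0.0713), while its log2 fold change stayed between 0.54 and 0.70. Pdha1 overlaps Map3k15 on the opposite strand over 1143 bases. Over the 3 libraries of a group, Map3k15 had 278 counts beside 9521 for Pdha1 in KANSL1-deficient cells, and 143 beside 6654 in control cells. Pdha1 is X-linked, and all 6 libraries read alike for genes of the sex chromosomes, chosen after their values were seen: Ddx3y of the Y chromosome had 5810 to 6874 counts in KANSL1-deficient and 6530 to 7104 in control libraries, and Xist had 0 to 3 in KANSL1-deficient and 0 to 2 in control libraries.

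Pdhb, the E1 beta gene, was read at 293, 300.5 and 311 CPM in KANSL1-deficient libraries, against 297, 313.5 and 308 CPM in control libraries. The groups overlapped almost entirely. Its log2 fold change of -0.02 had a 95% interval of -0.26 to 0.22. Dlat, the E2 gene whose lipoate arm carries the acetyl group, was read at 32.9, 47.7 and 45.9 CPM in KANSL1-deficient libraries and at 45.9, 44.3 and 56.3 CPM in control libraries, with the first KANSL1-deficient library the lowest of all. Dld, the E3 gene that reoxidises the lipoate and is shared with the 2-oxoglutarate complex, had a log2 fold change of 0.13 (interval -0.18 to 0.44). Pdhx, which tethers E3 to the complex, had one of -0.24 (interval -0.70 to 0.22). Within each library, the ratio of Pdha1 to Pdhb per gene length was 0.585, 0.548 and 0.461 in KANSL1-deficient libraries and 0.316, 0.334 and 0.366 in control libraries. The ratio of Pdha1 to Dlat was 6.60, 4.38 and 3.95 in KANSL1-deficient libraries and 2.59, 2.99 and 2.54 in control libraries. Neither ratio overlapped between the groups, and the CPM of Pdha1 alone did not either.

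Of the kinase and phosphatase genes, the kinase Pdk1 rose and the other 4 did not pass the threshold. Pdk1, a known target of the hypoxia-inducible factor (ENSMUSG00000006494, GRCm39 chromosome 2, 71703568 to 71734202), gave 304, 343 and 285 CPM in KANSL1-deficient libraries, against 220, 209.7 and 221 CPM in control libraries. The control libraries lay close to each other and below every KANSL1-deficient library. The means were 311 ± 29.4 CPM in KANSL1-deficient and 217 ± 6.17 CPM in control cells (SD, n = 3 each), a 1.43-fold difference (log2 0.52 ± 0.12, SE; edgeR, Benjamini-Hochberg adjusted p = 0.0253). In the authors' deposited table the adjusted p is 0.00156. Pdk1 did not pass without KANSL1-deficient replicate 1 (adjusted p = 0.0844) or 2 (0.125), without control replicate 2 (0.0842) or 3 (0.0542), with library totals as the scale (0.0754), or after removal of the trend with abundance (0.136), which gave a log2 fold change of 0.31.

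Pdk2, the broadly expressed kinase gene, was read at 28.6, 24.2 and 29.1 CPM in KANSL1-deficient libraries and at 22.01, 20.2 and 23.3 CPM in control libraries. Its groups did not overlap, with a log2 fold change of 0.32 (interval -0.08 to 0.73; edgeR, Benjamini-Hochberg adjusted p = 0.336). Pdk3, the X-linked kinase gene, had one of -0.11 (interval -0.53 to 0.32). As a share of the 3 kinase genes per length, Pdk1 took 68.4%, 72.7% and 68.2% in KANSL1-deficient libraries, against 64.7%, 64.5% and 60.9% in control libraries. Neither phosphatase gene passed the threshold. Pdp2 was read at 51.2, 64.5 and 60.1 CPM in KANSL1-deficient libraries, against 83.1, 65.8 and 87.2 CPM in control libraries. The groups did not overlap, with KANSL1-deficient replicate 2 and control replicate 2 close to each other, and the log2 fold change of -0.43 ± 0.16 (SE) did not pass (edgeR, Benjamini-Hochberg adjusted p = 0.136). Pdp1 had a log2 fold change of 0.02 (interval -0.39 to 0.42).

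**Figure D2:**
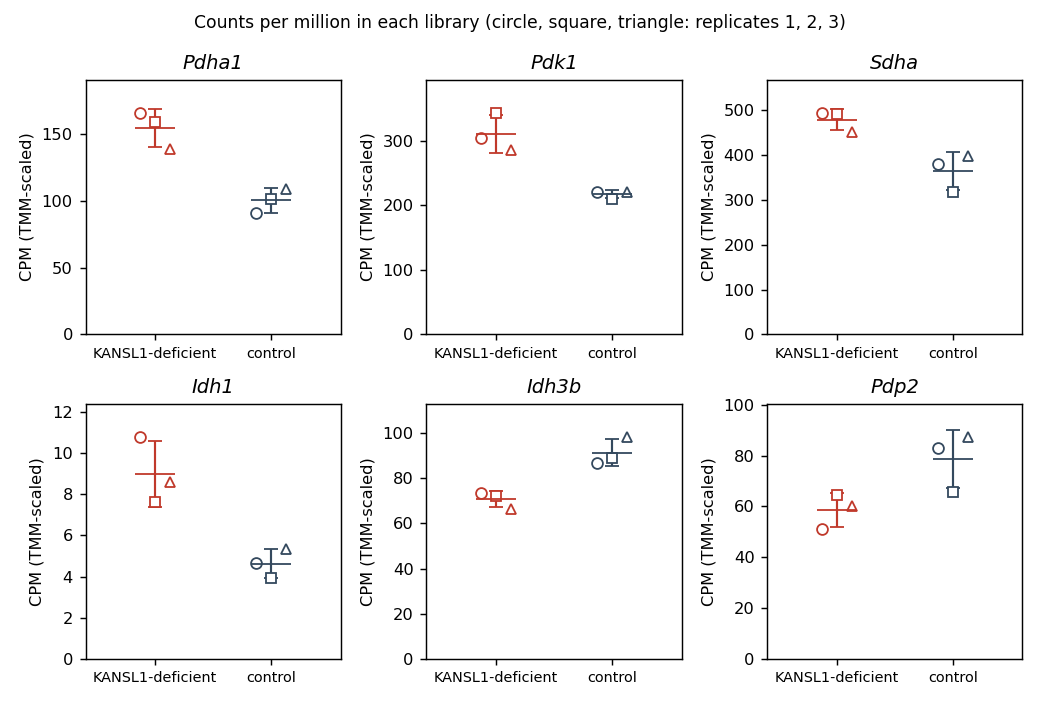
CPM in each library for the 6 genes with an unadjusted p under 0.05, with KANSL1-deficient libraries left of control libraries, a horizontal line at the mean and bars of 1 SD (n = 3 each). Pdha1, Pdk1, Sdha and Idh1 are higher and Idh3b and Pdp2 lower in every KANSL1-deficient library than in any control library. The smallest gap is that of Pdp2, between 64.5 and 65.8 CPM.

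None of the 4 genes that bring carbon into the cycle beside pyruvate dehydrogenase passed the threshold, and the 95% interval of each includes 0. Mpc1 and Mpc2 together form the mitochondrial pyruvate carrier. Mpc1 was read at only 3.44, 3.02 and 4.26 CPM in KANSL1-deficient libraries and at 4.79, 4.31 and 4.62 CPM in control libraries, with a log2 fold change of -0.36 whose interval runs from -1.11 to 0.40. Mpc2 had a mean of 85.2 ± 6.39 CPM in KANSL1-deficient and 88.8 ± 4.30 CPM in control cells (SD, n = 3 each). Pcx, the carboxylase that makes oxaloacetate from pyruvate, was read rarely, with 1, 20 and 42 counts in KANSL1-deficient libraries and 75, 30 and 38 counts in control libraries. Its log2 fold change of -1.09 had an interval of -2.99 to 0.81, and the counts varied widely within each group. Me2, the mitochondrial malic enzyme gene, was read at 116, 106 and 117 CPM in KANSL1-deficient libraries and at 85.9, 85.6 and 107 CPM in control libraries. The third control library reached into the KANSL1-deficient range, and the log2 fold change was 0.28 (interval -0.02 to 0.59).

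In the stretch of the cycle between citrate and succinate, 0 of 9 genes passed the threshold with edgeR and 0 with DESeq2, 1 reached an unadjusted p under 0.05 (edgeR), and the median log2 fold change was -0.05. The 3 subunit genes of NAD-dependent isocitrate dehydrogenase had log2 fold changes of both signs. Idh3b, the beta subunit gene, was read at 73.6, 72.1 and 66.6 CPM in KANSL1-deficient libraries, against 86.7, 89.1 and 98.2 CPM in control libraries. All 3 KANSL1-deficient libraries lay below the control libraries, and the log2 fold change was -0.37 ± 0.13 (SE; edgeR, Benjamini-Hochberg adjusted p = 0.118). Idh3a, the catalytic alpha subunit gene, was read at 50.1, 51.1 and 52.4 CPM in KANSL1-deficient libraries, against 60.3, 57.1 and 73.2 CPM in control libraries. It did not overlap between the groups either, with a log2 fold change of -0.31 ± 0.15 (SE; adjusted p = 0.253 with the same edgeR test and Benjamini-Hochberg adjustment). Idh3g, the X-linked gamma subunit gene, was read at 263, 236 and 213 CPM in KANSL1-deficient libraries and at 197, 241 and 209.6 CPM in control libraries, which overlapped (log2 fold change 0.14). With library totals as the scale, Idh3b was called lower (log2 fold change -0.52, edgeR adjusted p = 0.0313) and Idh3g had a log2 fold change of -0.01. Cs, citrate synthase, had a mean of 102 ± 8.93 CPM in KANSL1-deficient and 98.1 ± 10.2 CPM in control cells (SD, n = 3 each). Ogdh and Dlst, the first and the E2 enzyme of the 2-oxoglutarate dehydrogenase complex, had log2 fold changes of -0.08 (interval -0.40 to 0.24) and 0.24 (interval -0.10 to 0.57). The succinyl-CoA ligase genes Suclg1, Suclg2 and Sucla2 were at -0.05, 0.02 and -0.09 with intervals that all include 0.

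From succinate to oxaloacetate, 0 of 6 genes passed with edgeR, 1 had an unadjusted p under 0.05, and DESeq2 called 1. That gene was Sdha, the flavoprotein subunit of succinate dehydrogenase, which is also complex II of the respiratory chain. Sdha was read at 493, 490.2 and 451 CPM in KANSL1-deficient libraries, against 380.0, 317 and 398 CPM in control libraries. Its lowest KANSL1-deficient library was above its highest control library, and the log2 fold change was 0.39 ± 0.12 (SE; edgeR, Benjamini-Hochberg adjusted p = 0.0773). The authors' deposited table lists an adjusted p of 0.0340 for it. Sdha passed in only 1 of 16 other settings and libraries left out, with log2 fold changes of 0.15 to 0.45. The other 3 subunit genes had negative log2 fold changes that did not pass. Sdhb, the iron-sulfur subunit gene, had one of -0.17 (interval -0.47 to 0.13) and Sdhd, a membrane anchor gene, one of -0.15 (interval -0.49 to 0.18). Sdhc, the other anchor gene, was read at 67.7, 67.9 and 66.3 CPM in KANSL1-deficient libraries and at 72.3, 93.6 and 73.1 CPM in control libraries, with a log2 fold change of -0.24 (interval -0.57 to 0.08). Its KANSL1-deficient libraries were nearly equal, and control replicate 2 stood above the other two. Fh1, fumarase, was read at 46.6, 63.5 and 69.6 CPM in KANSL1-deficient libraries and at 46.2, 47.9 and 49.2 CPM in control libraries. The first KANSL1-deficient library was within the control range, and the log2 fold change of 0.33 did not pass (interval -0.05 to 0.70). Fh1 overlaps Kmo on the opposite strand over 5255 bases, and over the 3 libraries of a group Kmo had 758 counts beside 3686 for Fh1 in KANSL1-deficient cells, and 238 beside 3163 in control cells. Mdh2, the mitochondrial malate dehydrogenase gene, was at -0.08 (interval -0.32 to 0.17).

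The genes of related enzymes outside the cycle proper were Idh1, Idh2 and Mdh1. Idh1, the cytosolic NADP-dependent isocitrate dehydrogenase gene, was read at 10.8, 7.64 and 8.61 CPM in KANSL1-deficient libraries, against 4.64, 3.92 and 5.32 CPM in control libraries. Every KANSL1-deficient library was above every control library, from 162 to 219 counts in KANSL1-deficient libraries and 89 to 121 counts in control libraries. The log2 fold change of 0.96 ± 0.30 (SE) was the highest of the 32 genes but did not pass (edgeR, Benjamini-Hochberg adjusted p = 0.0748), while the authors' deposited table lists an adjusted p of 0.0318. Idh1 passed in only 1 of 16 other settings and libraries left out, with log2 fold changes of 0.56 to 1.07. Idh2, its mitochondrial relative, had a mean of 81.5 ± 6.39 CPM in KANSL1-deficient and 71.7 ± 12.8 CPM in control cells (SD, n = 3 each), a log2 fold change of 0.18. Mdh1, the cytosolic malate dehydrogenase of the malate-aspartate shuttle, was at -0.07 (interval -0.33 to 0.20).

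Per gene length the levels spanned a wide range, given here as FPKM (fragments per kilobase of gene length, scaled by the authors to library totals). Sdhd was the highest, at 147 ± 10.9 FPKM in KANSL1-deficient and 181 ± 35.6 FPKM in control cells (SD, n = 3 each), followed by Mdh1 at 114 ± 12.8 FPKM in KANSL1-deficient and 132 ± 7.53 FPKM in control cells. The E1 beta gene Pdhb, at 74.1 ± 3.79 FPKM in KANSL1-deficient and 83.4 ± 1.19 FPKM in control cells, stood above the E1 alpha gene Pdha1, at 39.2 ± 2.82 FPKM in KANSL1-deficient and 28.2 ± 2.45 FPKM in control cells. The enzyme itself holds both subunits in equal number. At the low end were Idh1, at 3.08 ± 0.51 FPKM in KANSL1-deficient and 1.76 ± 0.28 FPKM in control cells, and Mpc1, at 1.63 ± 0.32 FPKM in KANSL1-deficient and 2.31 ± 0.16 FPKM in control cells. Pcx was lowest, at 0.209 ± 0.210 FPKM in KANSL1-deficient and 0.491 ± 0.284 FPKM in control cells. The lengths behind these values were the same in all 6 libraries, so a library's own isoforms did not enter them. Between genes the lengths differed, from 1231 bases for Sdhd to 9559 for Dlst, and the order depends on them. Without division by length, Sdhd had a mean of 212 CPM in control cells, below Sdha at 365 CPM.

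**Figure D3:**
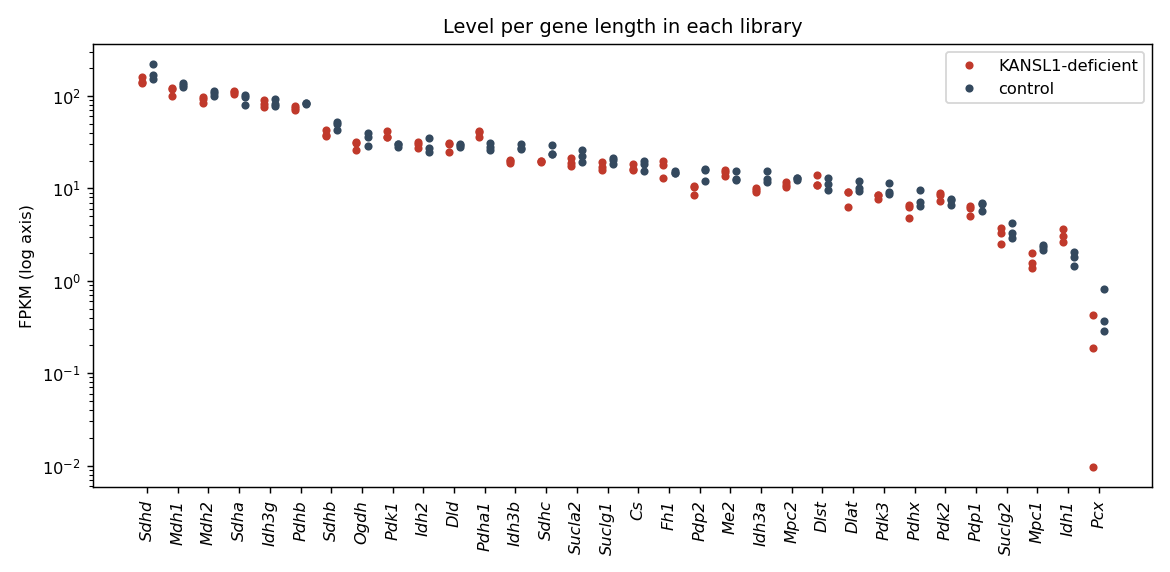
FPKM of each of the 32 genes in each library, on a log axis, in the order of the control mean, with KANSL1-deficient libraries left of control libraries for each gene. Sdhd stands at the high end, with KANSL1-deficient libraries between 139 and 159 FPKM and control libraries between 152 and 221 FPKM, and Pcx at the low end, with both groups under 1 FPKM.

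Ratios between 2 genes of 1 library do not depend on how the library was scaled, and 10 were compared with an exact two-sided permutation test whose smallest p over the 20 assignments of libraries is 0.1. In 6 of the 10 pairs the groups did not overlap, which gave p = 0.1 in the exact test and 0.167 after Benjamini-Hochberg adjustment over the 10 pairs, so no pair could pass. These were Pdha1 over Pdhb and over Dlat, Pdk1 over Pdk3 and over Pdp1, Idh1 over Idh2, and Sdha over Sdhb. The gene named first in each of them was already without overlap in CPM, so these ratios are not separate evidence. The share of ratios without overlap among all gene pairs was not computed. The ratio of Pdk1 to Pdk3 was 4.34, 4.96 and 4.64 in KANSL1-deficient libraries, against 3.35, 3.18 and 2.62 in control libraries. The ratio of Sdha to Sdhb was 3.00, 3.00 and 2.50 in KANSL1-deficient libraries, against 2.28, 1.59 and 1.94 in control libraries. That of Idh1 to Idh2 averaged 0.103 ± 0.0103 in KANSL1-deficient and 0.0605 ± 0.0042 in control libraries (SD, n = 3 each). The other 4 pairs overlapped: Pdk1 over Pdk2 differed by 0.19 on the log2 scale (exact p = 0.3), Mpc1 over Mpc2 by -0.31 (exact p = 0.2), Suclg2 over Sucla2 by 0.11 (exact p = 0.7) and Mdh1 over Mdh2 by 0.01 (exact p = 1).

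**Figure D4:**
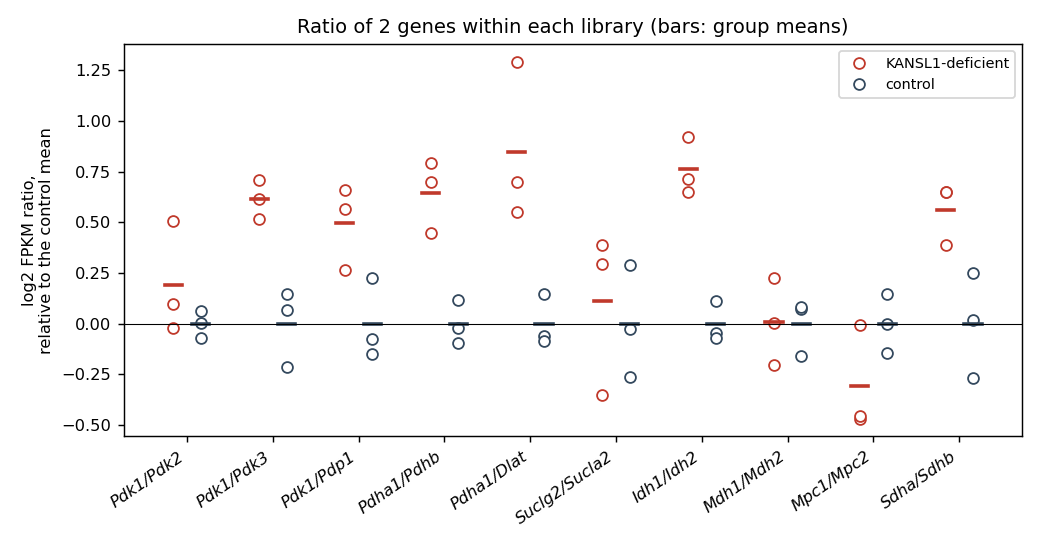
Log2 ratio of the FPKM of 2 genes within each library, set to 0 at the control mean of each pair, with KANSL1-deficient libraries left of control libraries and short bars at the group means. In 6 pairs, among them Pdha1 over Pdhb (0.65) and Idh1 over Idh2 (0.76), the KANSL1-deficient libraries lie above every control library.

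Genes next to these enzymes, for cofactors, assembly, transport and the lactate and glutamine routes, were listed by role. Of 47 listed genes, 43 were tested, and 1 rose and 2 fell, which is 6.98% against 6.76% of all tested genes. The median of their log2 fold changes was -0.19, beside -0.02 for all tested genes, and the groups did not overlap for 12 of the 43 that were lower in KANSL1-deficient cells (27.9%, against 14% of all tested genes) and 2 that were higher (4.65%, against 14.6%). These comparisons are not matched for abundance, and the lists were chosen with earlier results of these data known. With all tested genes in 10 groups by abundance, the median ran from -0.20 in the second lowest group to 0.20 in the highest. Where the 43 genes fall among these groups was not worked out. Slc16a1, the lactate and pyruvate transporter of the plasma membrane, was read at 261, 277 and 203 CPM in KANSL1-deficient libraries, against 142, 115 and 178 CPM in control libraries, and rose by 0.77 ± 0.17 on the log2 scale (SE; edgeR, Benjamini-Hochberg adjusted p = 0.0234). Aco1, the cytosolic aconitase that doubles as an iron regulatory protein, was read at 24.0, 29.4 and 25.4 CPM in KANSL1-deficient libraries, against 42.5, 51.4 and 58.8 CPM in control libraries, and fell by 0.95 on the log2 scale. Mecr, the last enzyme of mitochondrial fatty acid synthesis, the pathway that supplies the lipoate precursor for Dlat and Dlst, was read at 6.69, 12.7 and 11.5 CPM in KANSL1-deficient libraries, against 19.8, 34.3 and 31.3 CPM in control libraries. It fell by 1.47 on the log2 scale, and neither Mecr nor Aco1 overlapped between the groups. Their adjusted p-values were 0.0131 and 0.0119 with the same edgeR test. Slc16a1 and Mecr passed in 8 and 14 of 16 other settings and libraries left out, and Aco1 in 15. Without KANSL1-deficient replicate 1, 0 of the 43 genes passed.

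Of the 9 tested genes of lipoate and iron-sulfur supply, 5 were lower in every KANSL1-deficient library than in any control library (55.6%, against 14% of all tested genes). This list was chosen with earlier results of these data known, so the share is not separate evidence, and it is not matched for abundance. The summed level of the 10 listed genes was 171 to 184 CPM in KANSL1-deficient and 205 to 265 CPM in control libraries. Besides Mecr, Bola3, an iron-sulfur assembly factor, had a log2 fold change of -0.70 (edgeR, Benjamini-Hochberg adjusted p = 0.0538), at a mean of 19.9 CPM in KANSL1-deficient and 32.3 CPM in control cells. DESeq2 called Bola3 lower (Benjamini-Hochberg adjusted p = 0.0114), as did edgeR with library totals, with no filter and with the filter at 5 CPM, and limma on either log2 FPKM scale. All 4 assembly factors of succinate dehydrogenase had negative log2 fold changes and 0 passed with edgeR, with 1 at an unadjusted p under 0.05; DESeq2 called that gene, Sdhaf3, which was read at a mean of 1.53 CPM in KANSL1-deficient and 4.12 CPM in control cells. In the glutamine and aspartate list, Got2, the mitochondrial aspartate transaminase, was read at 112, 128 and 92.2 CPM in KANSL1-deficient libraries and at 150, 146 and 175 CPM in control libraries (log2 fold change -0.50, edgeR adjusted p = 0.0658). DESeq2 (adjusted p = 0.0205) and the same other settings called Got2 lower, as did edgeR after removal of the abundance trend (0.0276). Ldha, which turns pyruvate into lactate, had a log2 fold change of 0.37 (edgeR adjusted p = 0.0997). Other genes of these lists did not pass either: the log2 fold change was -0.71 for the aspartate-glutamate carrier Slc25a13, -0.51 for the citrate carrier Slc25a1, -0.48 for the cytosolic aspartate transaminase Got1, -0.48 for Mrps36, an adaptor of the 2-oxoglutarate complex, -0.42 for the assembly factor Sdhaf1 and 0.72 for the thiamine transporter Slc19a2. The cell division markers above differed between the groups beside each of these genes as well.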

How the data were processed

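RNA of double-positive thymocytes from 3 KANSL1-deficient and 3 control mice was sequenced after poly-T selection, per the labels' protocols. The submitters' processing notes name STAR, featureCounts, DESeq2 and the GRCm39 build. No version and no strand setting was given in the sources used here. The authors deposited whole-number counts per gene, FPKM values scaled to library totals, and, per the file headers, their own log2 fold changes with a p-value and an adjusted p-value. In all, 12 of the 32 genes overlap another annotated gene, whose reads may not be separable.

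The counts as deposited were tested in R 4.3.3 with edgeR 4.0.16 (quasi-likelihood F test), with TMM scaling, a filter on low counts (minimum count 10, minimum total 15), robust dispersion and Benjamini-Hochberg adjustment over all 15353 tested genes at 0.05. CPM values are TMM-scaled. The SE is the log2 fold change divided by the square root of F, and intervals are at 95%. Gene pair ratios used FPKM with an exact permutation test. The calling was tested on simulated counts with known changes, and the share called is not given here. A gene that did not pass may still differ between the groups. Alternatives were median-of-ratios factors, library totals, no filter, at least 5 CPM in 3 libraries, DESeq2 1.42.0, limma 3.58.1 (voom, and log2 of FPKM plus 1 or plus 0.1), removal of a trend with abundance from each library (lowess, span 0.3), a block for the replicate number, and leaving out 1 library at a time. For the ratios, raw counts, FPKM plus 0.5 and differences within replicate numbers were also tried.

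Groups and replicate numbers came from the sample titles, which number the mice. No library was a copy of another within counting noise. Named genes were all members, Kansl1, the called other pathway genes and the 2 with the smallest p of each of their lists. Some genes that this rule names are left out of the text. The genes and lists were chosen with earlier results of these data known.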

Additional observations from a re-analysis of the deposited data

How the results depend on the processing

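Pdha1 passed in 9 and Pdk1 in 7 of 16 alternatives, with log2 fold changes of 0.46 to 0.70 and 0.31 to 0.58, positive in each. Of the 32 genes, 4 were called higher by DESeq2, 1 with library totals, 1 after removal of the abundance trend, and 0 with log2(FPKM + 1), log2(FPKM + 0.1) or the replicate block; the gene called lower with library totals and with either FPKM scale was Idh3b (1 each). With 1 library left out, 0 to 2 were called higher. Over all genes, 1038 calls became 1729 with no filter, 2009 with DESeq2, 406 with the replicate block and 283 to 811 with 1 library left out. Of the other pathway genes, 3 calls became 6 with library totals, 5 with no filter, 5 with the 5 CPM filter, 7 with DESeq2, 5 on either FPKM scale and 0 to 3 with 1 library left out. Equal replicate numbers did not deviate together (correlations of -0.05, -0.02 and -0.10), so the libraries were not treated as pairs.

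Log2 fold changes near 0 changed sign, and the cause was not tested. With library totals, log2(FPKM + 1) and log2(FPKM + 0.1), they were -0.024, -0.028 and -0.029 for Dld, -0.13, -0.11 and -0.13 for Pdp1, -0.10, -0.092 and -0.096 for Cs, -0.014, -0.013 and -0.013 for Idh3g and -0.12, -0.094 and -0.12 for Suclg2. After removal of the abundance trend they were -0.031 for Cs and -0.056 for Idh3g. With 1 library left out the ranges were -0.058 to 8e-04 for Pdhb, -0.19 to 0.015 for Pdk3, -0.092 to 0.11 for Pdp1, -0.050 to 0.11 for Cs, -0.21 to 0.018 for Ogdh, -0.13 to 3e-04 for Suclg1, -0.11 to 0.18 for Suclg2, -0.215 to 0.0095 for Sucla2, -0.29 to 0.0073 for Sdhd and -0.12 to 0.015 for Mdh1. For the log2 ratios they were -0.029 to 0.34 for Suclg2 over Sucla2 and -0.10 to 0.11 for Mdh1 over Mdh2. Pcx, Mpc1 and Idh1 had the fewest counts of the 32 genes, so their relative counting error is the largest.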
